A study of Mus musculus with 23 samples.

Results

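Endocrine cells store peptide hormones in dense-core secretory granules, and the genes described here build those granules and cut the hormones out of their precursors. They are 10 genes, chosen by name because each is a known part of this pathway, out of 22517 named genes in each deposited table: the granins Chga, Chgb, Scg2 and Scg3, the convertase partners Scg5 and Pcsk1n, and the processing enzymes Pcsk1, Pcsk2, Cpe and Pam. All 10 symbols were found in both tables. RNA was sequenced from 3 groups of 3 libraries of adult mouse intestinal epithelium, all from the proximal intestine of mice on a B6;129 mixed background. Wild-type villus came from mice of genotype EedF/F; Cre-, Eed-null villus from EedF/F; Villin-CRE mice, and intestinal stem cells (ISC) were sorted for high GFP from Eed+/+; Lgr5-EGFP-IRES-CREERT2 mice. Tamoxifen, 1 to 2 mg on each of 5 days, had been given in every group, the controls included. Villin is active throughout the intestinal epithelium, so Cre reaches every epithelial lineage and not one cell type. Eed belongs to the core of PRC2, the Polycomb complex that methylates histone H3 at lysine 27, and the title of the series asks about the need for PRC2 in adult somatic cells.

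Granins are acidic proteins that condense with hormone precursors in the trans-Golgi network and form the granule core. Within the granule the serine proteases Pcsk1 and Pcsk2 cut precursors after pairs of basic residues, carboxypeptidase E (Cpe) trims the exposed basic residues, and Pam amidates the new ends that many hormones need for activity. In the gut epithelium this pathway is best known from enteroendocrine cells, the scattered hormone-secreting cells of crypt and villus, with Chga as their standard marker. These cells are a small minority of the epithelium, and in bulk RNA a change in their number and a change in RNA per cell cannot be told apart.

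The promoters of 4 granule genes that differed between villus and ISC are shown, 3 of which share a short element, while that of Chga holds a variant of it. RefSeq promoter windows on build GRCm38.p6 were matched by symbol for 9 of the 10 genes, Cpe being the exception. The palindrome TGACGTCA, the cAMP response element that CREB family factors bind, was searched in the 250 bases before each start site. It was found in Scg2, Chgb and Pcsk1 and in 1.55% of 32851 such windows over all genes. It ended 61, 65 and 71 bases before the start site, at positions -68 to -61 in Scg2, -72 to -65 in Chgb and -78 to -71 in Pcsk1, counted from -1 at the base before the start. Chga has the variant TGACGTAA, which was searched after its promoter had been seen, at -44 to -37, and 0.447% of the windows hold it. Both elements were searched on both strands and do not overlap each other in these windows. CAGATG, an E-box, and TATAAA were found in 14.4% and 12.4% of all windows and in none of the 9 matched genes. The lines below give the last 120 bases before each start site, 5′ to 3′ on the strand of the gene, with the element in capitals.
Chgb, chr2:132781522-132781641, plus strand: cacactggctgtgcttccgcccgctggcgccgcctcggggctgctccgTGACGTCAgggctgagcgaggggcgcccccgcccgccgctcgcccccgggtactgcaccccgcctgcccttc
Scg2, chr1:79440027-79440146, minus strand: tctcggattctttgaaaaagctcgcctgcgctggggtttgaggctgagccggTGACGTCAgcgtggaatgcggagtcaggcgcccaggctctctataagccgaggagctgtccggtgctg
Pcsk1, chr13:75089737-75089856, plus strand: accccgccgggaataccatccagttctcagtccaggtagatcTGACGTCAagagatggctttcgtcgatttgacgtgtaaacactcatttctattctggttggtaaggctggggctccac
Chga, chr12:102554821-102554940, plus strand: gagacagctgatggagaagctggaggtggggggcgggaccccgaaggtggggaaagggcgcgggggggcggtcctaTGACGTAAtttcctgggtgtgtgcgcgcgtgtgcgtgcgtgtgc

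A printed match is a description of these letters, and no binding was measured here. The members with the element did not move as 1 group between villus and ISC: Scg2 was higher in villus, and Chgb, Chga and Pcsk1 higher in ISC. Of these 4 only Pcsk1 was called higher in Eed-null villus. Chgb and Chga had higher values there without a call, and Scg2 a lower value without a call, as given below. The GC content of the 250-base windows ran from 46.8% in Pcsk1 to 82.4% in Pcsk2, around a median of 52.4% over all windows.

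Each group has 1 deposited value per gene in RPKM, a read density scaled to gene length and library size, so no value per library and no spread within a group can be given. Error is therefore known through the q-value of the authors' deposited tables alone, and "called" means tested by the authors with a q of 0.05 or lower. Depth per library is unknown. The labels fitted the markers of these groups: all 7 enterocyte markers were called higher in wild-type villus and all 7 stem cell markers in ISC. Eed stood at 3.00 RPKM in Eed-null compared with 9.17 RPKM in wild-type villus (q = 6.29e-06 per the authors' deposited table).

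The granin genes Chgb and Chga were the most abundant members in all 3 groups, and the convertase gene Pcsk2 was nearly absent from each. RPKM is a per-length scale, so levels can be set side by side between genes. In wild-type villus the order of levels was Chgb at 47.5, Chga at 31.3, Cpe at 7.61, Pam at 6.84, Scg2 at 3.76, Pcsk1 at 3.36, Scg5 at 1.26, Scg3 at 0.671 and Pcsk1n at 0.317 RPKM, with Pcsk2 listed at 0 per the authors' deposited table for villus and ISC. In ISC the first 3 were Chgb, Chga and Pcsk1, and in Eed-null villus Chgb, Chga and Cpe. Whether neighbours in these orders differ beyond their spread cannot be said from 1 value per group. Chgb alone made up 46.3% of the summed RPKM of all 10 members in wild-type villus and 61.2% in ISC.

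**Figure D1:**
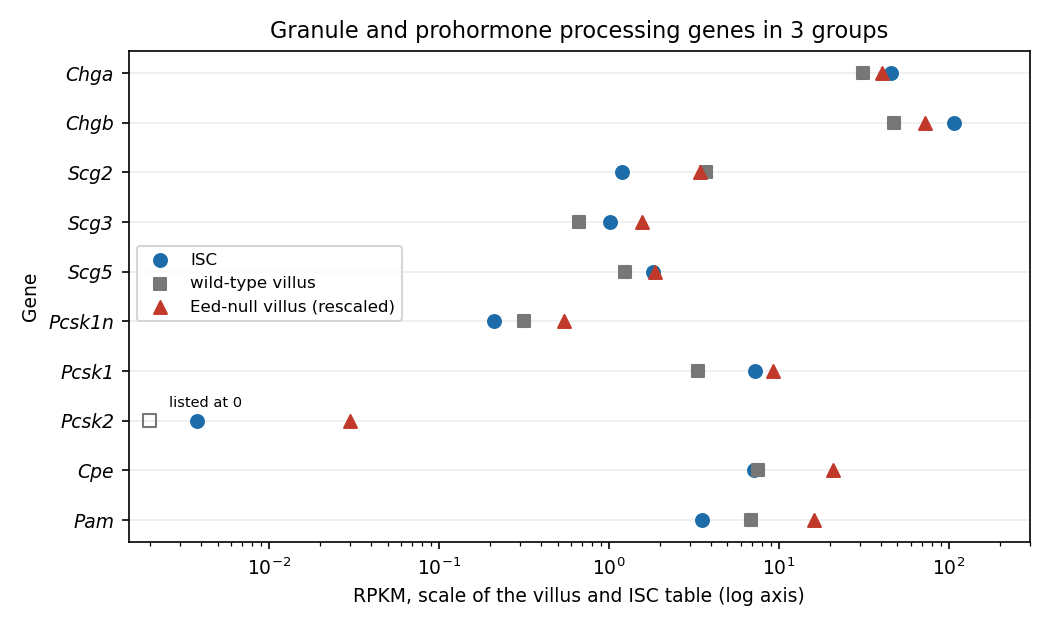
Level of each of the 10 genes (rows) in RPKM on a log axis, with 1 deposited value per group: circles for ISC, squares for wild-type villus and triangles for Eed-null villus, the last multiplied by 1.16193 to bring both tables to 1 scale. The open square marks Pcsk2, listed at 0 in wild-type villus, and 7 of the 10 genes have their highest point in Eed-null villus.

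Wild-type villus and ISC differed in both directions. Of 8 tested members, Scg2 and Pam were called in favour of villus and Chga, Chgb and Pcsk1 in favour of ISC, with Scg3, Scg5 and Cpe not called. Across all 13007 tested genes 62.8% were called, 30.5% for villus and 32.3% for ISC, so 5 of 8 is a share near the background. After Bonferroni adjustment of the authors' p, of these 5 Chgb alone was called. The median difference of log2(RPKM + 1), villus minus ISC, was -0.14 over the 10 members and -0.06 over all tested genes. Villus was frozen directly after EDTA release, whereas ISC were dissociated with TrypLE and sorted, and cell type and handling cannot be told apart.

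Among granins, Chgb, which helps condense the granule core, stood at 107 RPKM in ISC against 47.5 in wild-type villus, a 2.26-fold difference (q = 2.76e-06 per the authors' deposited table). Chga, the other major granin, had 46.0 RPKM in ISC compared with 31.3 RPKM in villus, a 1.47-fold difference (q = 0.0258 per the authors' deposited table). Scg2, the precursor of the peptide secretoneurin, went the other way, at 3.76 RPKM in villus against 1.20 in ISC, a 3.13-fold difference (q = 0.000277 per the authors' deposited table). Both abundant granins were thus higher in the sorted ISC group and a scarcer one higher in villus. Scg3, which anchors Chga to the granule membrane, had 0.671 RPKM in villus compared with 1.02 RPKM in ISC (q = 0.351 per the authors' deposited table). The ratio of Chgb to Chga was 2.34 in ISC and 1.52 in wild-type villus.

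Of the processing enzymes, Pcsk1 was higher in ISC, at 7.23 against 3.36 RPKM in villus, a 2.15-fold difference (q = 0.000542 per the authors' deposited table). Pam, the amidating enzyme, was higher in villus, at 6.84 against 3.55 RPKM, a 1.93-fold difference (q = 0.000991 per the authors' deposited table). Cpe had 7.61 RPKM in villus against 7.19 in ISC (q = 0.823 per the authors' deposited table). The summed RPKM of Pcsk1, Pcsk2, Cpe and Pam was 17.8 in villus and 18.0 in ISC, while that of the granins was 83.1 in villus and 156 in ISC. Opposite differences of Pcsk1 and Pam thus lie within nearly equal sums. Pam shares its locus entry with B230216N24Rik, at 0.492 RPKM in villus compared with 0.0441 RPKM in ISC per the authors' deposited table, and reads of the 2 genes may not be separable in a library that does not mark strand.

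The convertase partners were low in both groups. Scg5, the 7B2 protein that escorts Pcsk2 through the secretory pathway, had 1.26 RPKM in villus against 1.81 in ISC (q = 0.392 per the authors' deposited table). Pcsk1n, whose product proSAAS inhibits Pcsk1, had 0.317 RPKM in villus compared with 0.210 RPKM in ISC and was not tested. Pcsk2 itself had 0.00378 RPKM in ISC and is listed at 0 in villus per the authors' deposited table, where it was not tested either. No gene of that table was tested below 0.246 RPKM in its higher group, which leaves Pcsk2 far below and Pcsk1n above that level.

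Eed-null villus had higher levels of all 3 well-expressed processing enzymes than wild-type villus. Pcsk1, Cpe and Pam rose, no member was called lower, and the granins and convertase partners were not called. That is 3 of 9 tested members called, beside 11.4% of all 12525 tested genes. In the higher direction it is 3 of 9 beside 7.90%, and in the lower direction 0 of 9 beside 3.46%. By the unadjusted p of the authors' deposited table, 5 tested members were higher at p under 0.05, Chgb and Scg3 in addition to these 3, and none was lower. The share of all tested genes at that unadjusted p was not computed, here or for the lists below, so such counts have no background beside them. The median difference of log2(RPKM + 1), Eed-null minus wild-type, was 0.47 over the 10 members and -0.06 over all tested genes. Each called member was above 0.351 RPKM, the lowest level in the higher group of any tested gene, in both groups, so none of the 3 was tested only because it was high in Eed-null villus.

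Cpe rose from 6.55 RPKM in wild-type to 17.9 RPKM in Eed-null villus, 2.73-fold (q = 2.29e-06 per the authors' deposited table). Pcsk1 rose 2.77-fold, from 2.90 to 8.02 RPKM (q = 2.17e-05 per the authors' deposited table). Pam rose 2.34-fold, from 5.89 to 13.8 RPKM (q = 1.89e-05 per the authors' deposited table). The 3 enzymes act one after another on the same precursors, and their log2 ratios were 1.45 for Cpe, 1.47 for Pcsk1 and 1.23 for Pam, at or above those of 94.4%, 94.5% and 93.1% of tested genes. On build mm9 Cpe lies on chromosome 8 from 67071348 to 67171837, Pcsk1 on chromosome 13 from 75227434 to 75269946 and Pam on chromosome 1 from 99717670 to 99992209. B230216N24Rik, at the locus of Pam, had 0.494 RPKM in Eed-null against 0.424 in wild-type villus (q = 0.987 per the authors' deposited table). Pcsk2, the fourth enzyme, had 0.0259 RPKM in Eed-null villus, is listed at 0 in wild-type villus and was not tested per the authors' deposited table.

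**Figure D2:**
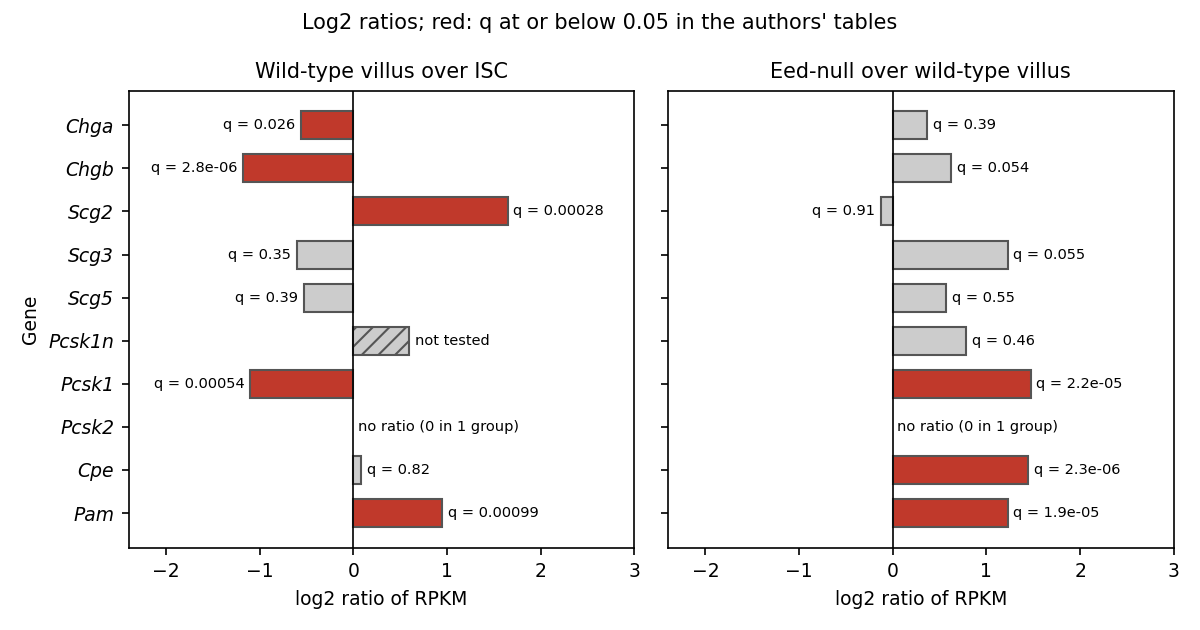
Log2 ratio of RPKM for each of the 10 genes (rows), wild-type villus over ISC on the left and Eed-null over wild-type villus on the right, with the authors' q beside each bar. Red bars have q at or below 0.05, grey bars do not, the hatched bar was not tested, and Pcsk1, Cpe and Pam are the 3 red bars on the right. Both panels use wild-type villus, so they are not independent.

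Granin values were higher in Eed-null villus in 3 of 4 cases, and none was called. Chgb had 62.9 RPKM against 40.9 RPKM in wild-type villus, 1.54 times as much (q = 0.0543 per the authors' deposited table). Scg3 had 1.35 against 0.578 RPKM, a ratio of 2.34 (q = 0.0547 per the authors' deposited table). These 2 genes lie just outside the threshold. Chga had 34.7 against 26.9 RPKM, a ratio of 1.29 with q = 0.394, and Scg2 had 2.96 against 3.23 RPKM (q = 0.908 per the authors' deposited table). Scg2 was the only member with a lower value in Eed-null villus.

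Summed over the 4 granins, the level was 102 RPKM in Eed-null compared with 71.6 RPKM in wild-type villus, a ratio of 1.42. The summed level of the 4 enzymes was 39.7 against 15.3 RPKM, a ratio of 2.59. Within each group, the level of Chga was 9.29 times that of Pcsk1 in wild-type villus and 4.33 times in Eed-null villus. It was 4.11 times that of Cpe in wild-type and 1.94 times in Eed-null villus. Whether enzymes and granins differ in their response was not tested, since no test between genes can be made from 1 value per group.

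The convertase partners were not called. Scg5 had 1.60 RPKM in Eed-null against 1.08 in wild-type villus (q = 0.554 per the authors' deposited table). Pcsk1n had 0.471 against 0.273 RPKM (q = 0.457 per the authors' deposited table). Pcsk1n was tested in this table and not in the other, and it shares its locus entry with Eras, at 0.0113 RPKM or less in both villus groups. Both partners thus had low levels and values that did not pass the test.

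The wild-type villus values of the 2 tables differ by a constant factor of 1.16193, and multiplying the Eed-null values by it puts all 3 groups side by side, with no test. On this scale 7 members were highest in Eed-null villus, Chga and Chgb in ISC, and Scg2 in wild-type villus. Cpe had 20.7 RPKM in Eed-null villus, 2.88 times its level in ISC, and Pam 16.0 RPKM, 4.52 times its level in ISC. Pcsk1, with 9.32 RPKM in Eed-null villus, was 1.29 times its level in ISC. Chga and Chgb in Eed-null villus lay between the other groups, at 40.3 and 73.0 RPKM.

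Genes of the surrounding pathway were taken from lists written for this tissue. Among gut peptide hormones, the cargo of these granules, 14 of 19 were tested between the villus groups. Of these, 5 were called higher in Eed-null villus and 1 lower, beside 7.90% and 3.46% of all tested genes. Gip, the incretin of K cells, rose from 188 to 384 RPKM (q = 0.000176 per the authors' deposited table). Sst, the inhibitory hormone somatostatin, rose from 38.7 to 82.2 RPKM (q = 0.000469 per the authors' deposited table). Tac1, the substance P precursor, rose 2.42-fold and Nucb2, the nesfatin precursor, 3.50-fold (q = 0.00666 and 0.00251 per the authors' deposited table). Gcg, the glucagon-like peptide precursor that Pcsk1 cleaves in L cells, fell from 9.53 to 2.58 RPKM (q = 7.06e-06 per the authors' deposited table). Cck, Sct, Pyy, Nts and Ghrl were not called, and the median difference of the tested hormones was 0.47. Gcg was thus lower in the same villus in which its convertase was higher.

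Between villus and ISC, 9 of 12 tested hormone genes were called, 6 of them higher in villus and 3 in ISC, beside 62.8% of all tested genes called, 30.5% for villus and 32.3% for ISC. Nts had 42.2 RPKM in villus compared with 0.205 RPKM in ISC, and Pyy, peptide YY, 13.7 against 0.885 RPKM per the authors' deposited table. Sct, secretin, had 111 RPKM in villus against 19.2 in ISC, whereas Tac1 was 5.50-fold higher in ISC per the authors' deposited table.

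The exocytosis list, the proteins that dock and fuse granules, had 6 of 19 tested members called higher in Eed-null villus and none lower. Of all tested genes 7.90% were called higher and 3.46% lower. At an unadjusted p under 0.05 the counts for this list were 11 and 0, with no background share computed. Rab27a, a granule GTPase, rose 2.05-fold and Rab3b, another, which shares its locus entry with a second gene, 2.90-fold (q = 0.000813 and 0.00142 per the authors' deposited table). Sytl2, a Rab27 effector, rose 1.82-fold to 15.7 RPKM (q = 0.0148 per the authors' deposited table). The median difference of the tested members was 0.42. Between villus and ISC, 13 of 22 tested members were called, 5 of them higher in villus and 8 in ISC, a share near the 62.8% of all tested genes. Cplx2, a complexin, was among those higher in ISC, at 2.91 RPKM in ISC compared with 0.486 RPKM in villus per the authors' deposited table.

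Of 7 other proprotein convertases of the secretory pathway only Pcsk6 was called in Eed-null villus, beside 11.4% of all tested genes. Pcsk6 rose 4.35-fold from 0.459 to 2.00 RPKM (q = 2.83e-06 per the authors' deposited table). Furin, the convertase of the Golgi in most cells, was 2.71-fold higher in villus than in ISC and Pcsk5 3.96-fold higher per the authors' deposited table. Of the 7, 4 were called higher in villus and 1 in ISC, beside 30.5% and 32.3% of all tested genes. Among trimming enzymes and inhibitors, 3 of 6 tested members were called higher in Eed-null villus and none lower, beside 7.90% and 3.46% of all tested genes. None was lower at an unadjusted p under 0.05 either. Cpd, a carboxypeptidase of the Golgi related to Cpe, rose 2.11-fold from 9.59 to 20.2 RPKM (q = 7.04e-05 per the authors' deposited table). Cpm, a carboxypeptidase of the cell surface, rose 1.95-fold (q = 0.00193 per the authors' deposited table). Carboxypeptidases outside the granule were also called higher.

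Of the other granins and granule membrane genes, Ptprn2, a phosphatase-like protein of the granule membrane, shares its locus entry and was the 1 of 8 tested called higher in Eed-null villus, 1.71-fold (q = 0.0307 per the authors' deposited table). The 1 of 8 stands beside 7.90% of all tested genes called higher. Ptprn2 was also 2.18-fold higher in ISC than in wild-type villus. In that comparison 2 of 9 tested members were called higher in villus and 3 in ISC, beside 30.5% and 32.3% of all tested genes. No gene of amine synthesis was called between the villus groups, nor reached an unadjusted p under 0.05. Tph1, the enzyme of serotonin synthesis, had 7.46 RPKM in Eed-null against 6.38 in wild-type villus (q = 0.770 per the authors' deposited table). Of 6 tested receptors and sensors, Ffar4 and Abcc8 were called higher in Eed-null villus. Ffar4 is a fatty acid receptor and Abcc8 a subunit of the ATP-sensitive potassium channel. Abcc8 lies below 0.351 RPKM in wild-type villus and entered the test through its higher value.

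Transcription factors of the enteroendocrine lineage were mostly called higher in ISC than in villus. Of 22 tested, 20 were called higher in ISC, beside 32.3% of all tested genes, and none in villus, with the same counts at an unadjusted p under 0.05 and a median difference of -0.84 beside -0.06 over all tested genes. Neurog3, which starts the lineage, had 15.4 RPKM in ISC compared with 0.663 RPKM in villus, and Sox4 17.2 against 1.92 RPKM per the authors' deposited table. Between the villus groups 1 of 16 tested factors was called, beside 11.4% of all tested genes. It was Pax6, which rose 12.8-fold from 0.333 to 4.26 RPKM (q = 5.41e-12 per the authors' deposited table). Pax6 lies below 0.351 RPKM in wild-type villus and entered the test through its higher value. Neurod1, a factor of the differentiating endocrine cell, had 2.08 against 1.62 RPKM (q = 0.677 per the authors' deposited table). Pax6 shares its locus entry with another gene.

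**Figure D3:**
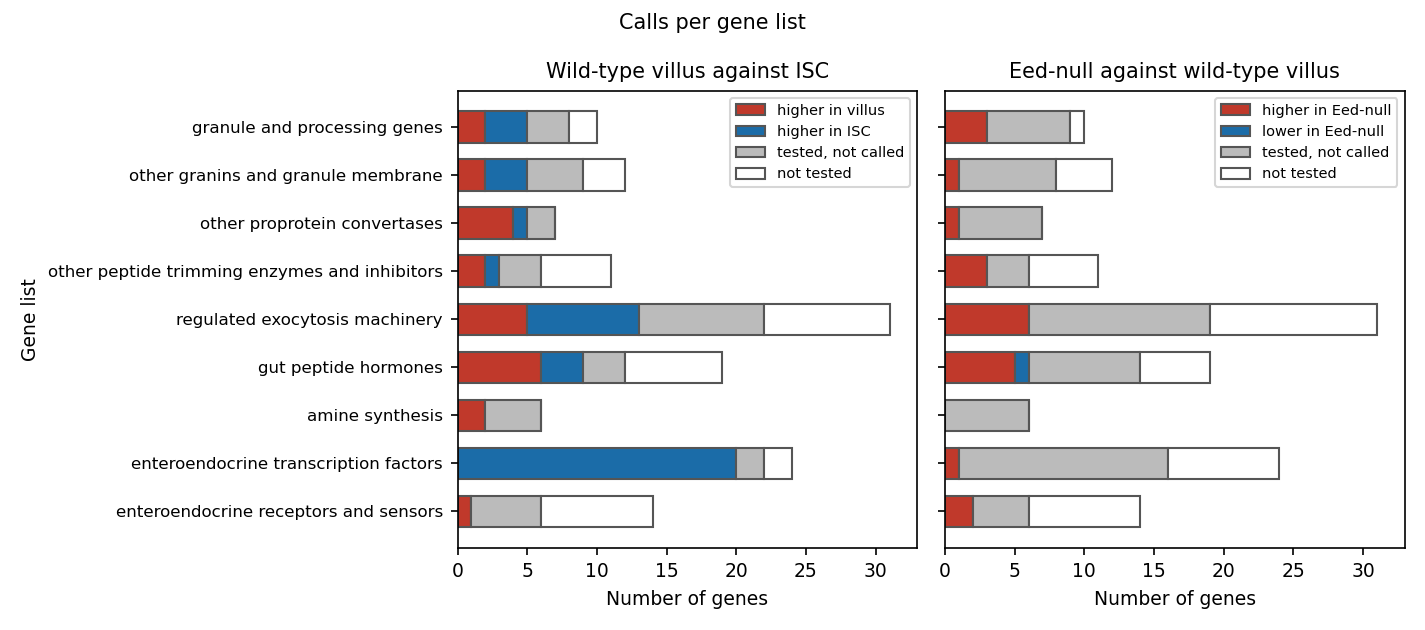
Number of genes in the granule and processing group and in 8 related lists (rows) by call, wild-type villus against ISC on the left and Eed-null against wild-type villus on the right. Red segments are genes called higher in the first-named group, blue segments genes called lower there, grey segments genes tested and not called, and white segments genes not tested. The blue segment of 20 transcription factors on the left has no counterpart on the right, where 1 factor was called.

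Some markers of other cell types also differed between the villus groups. The counts below stand beside 7.90% of all tested genes called higher in Eed-null villus and 3.46% called lower. Of 8 goblet cell markers 4 were called higher and none lower, with Clca1 lower at an unadjusted p under 0.05. Their summed level was 15789 RPKM in Eed-null against 10856 in wild-type villus. Zg16 and Tff3 make up most of both goblet sums, and neither was called. Of 7 Paneth cell markers 2, Ang4 and Pnliprp2, were called higher, with summed levels of 4710 and 3284 RPKM. Most of these sums is Ang4 and Itln1, and Itln1 was not called. Of the 7 values 6 were higher, while Lyz1 was lower at 699 against 879 RPKM without a call. Of 7 enterocyte markers 2, Lct and Treh, were called lower, with summed levels of 17764 and 21196 RPKM. Those sums are mostly Apoa1 and Fabp1, and neither was called. No tuft cell marker of 9 was called and 1, Ptgs1, was higher at an unadjusted p under 0.05, with summed levels of 72.3 and 65.9 RPKM. The part of these shifts in the rise of Pcsk1, Cpe and Pam was not tested.

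Cells outside the epithelium can also carry dense-core granules or amidating enzyme. Of 13 neuron and glia markers Ret and Nefl were called higher in Eed-null villus, with summed levels of 5.47 and 0.837 RPKM, of which Ret alone had 3.50 and 0.419 RPKM per the authors' deposited table. Only 3 of the 13 were tested in that table, where 7.90% of all tested genes were called higher. Nefl, at 0.0531 RPKM in wild-type villus, lies below 0.351 RPKM there and entered the test through its higher value. Over the whole list 9 values were higher in Eed-null villus, 2 were lower and 2 were at 0 in both groups, among them the glial gene Sox10. Prph, a neuronal intermediate filament, had 0.446 against 0.119 RPKM (q = 0.113 per the authors' deposited table), and the pan-neuronal genes Elavl3, at 0.238 against 0.00236 RPKM, and Tubb3, at 0.264 against 0.0923 RPKM, were not tested. Mesenchyme markers summed to 2.95 RPKM in Eed-null compared with 1.80 RPKM in wild-type villus. Only 2 of these 12 markers, Vim and Pdgfrb, were tested and neither was called or had an unadjusted p under 0.05. Of the 12 values 10 were higher in Eed-null villus, 1 was lower and Lum was at 0 in both. Pancreatic islet genes Ins1 and Ins2 had 0.0499 RPKM or less in all 3 groups, whereas Ppy, pancreatic polypeptide, had 0.490 RPKM in Eed-null villus and was listed at 0 in wild-type villus (q = 0.148 per the authors' deposited table), with an unadjusted p under 0.05. The part of these markers in the rise of Pcsk1, Cpe and Pam was not tested either. The acinar gene Clps was called higher in ISC than in villus and higher in Eed-null than in wild-type villus, at 476, 116 and, in the other table, 171 against 99.8 RPKM per the authors' deposited tables. It was the 1 of 4 tested islet and acinar genes called between the villus groups, beside 11.4% of all tested genes. Of 6 tested between villus and ISC, 3 were called, all higher in ISC, beside 32.3% of all tested genes. Cela1 was not called and went the other way, at 5.88 RPKM in villus against 4.90 in ISC. Between the villus groups Cela1 had 4.35 RPKM in Eed-null against 5.06 in wild-type villus. Cpa1, Pnlip and Prss2 had 0.585 RPKM or less in every group.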

How the data were processed

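The 10 genes, the lists and the tests were chosen with earlier results of these data known. Polyadenylated-RNA libraries (TruSeq V2, 75 bp single-end reads, NextSeq 500) were made by the authors, per the labels' protocols. The authors deposited 1 RPKM value per group and gene in 2 tables, and the p-value and q-value beside each gene come from the authors' own test. The second table names no unit; it was taken as RPKM because its control column is a constant fraction of the villus column in the first. Build mm9 and the tools Bowtie, Cuffdiff, TopHat2 2.0.6 and Cufflinks 2.0.1 are named, with no roles, in the submitters' processing notes. No model could be fitted. Folds are ratios without pseudocount, differences use log2(RPKM + 1), and calls need status OK and q at or below 0.05. An exact 0 can be a failed estimate: Lyz1 is listed at 0 in ISC with a status other than OK. The text names every member, up to 4 called genes per list with the largest differences, Eed, and 5 genes most like Chga; other list genes were named after their values were seen, and some list genes are not reported here. Libraries within a group are biological replicates, per the labels. The 14 chromatin libraries were not analysed here. Python 3.11.15, pandas 2.3.3 and numpy 2.4.6 were used.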

Additional observations from a re-analysis of the deposited data

How the results depend on the processing

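Pcsk1, Cpe and Pam were called higher in Eed-null villus at q of 0.01, among genes at 1 RPKM or more, and after Bonferroni adjustment of the authors' p; Pam leaves the count when genes sharing a locus entry are left out. No member was called lower in Eed-null villus under any of these. The villus and ISC calls held less well. Bonferroni adjustment left 0 members higher in villus and 1, Chgb, higher in ISC, ending the calls of Scg2, Pam, Chga and Pcsk1, and leaving out genes at shared loci left 1 higher in villus, Scg2. At q of 0.01 Chga was no longer called. The median difference of the members, villus minus ISC, was -0.28 with a pseudocount of 0.1, -0.50 with 0.01 and -0.30 over tested members only, and that of Eed-null minus wild-type villus was 0.99 with a pseudocount of 0.01. The median log2 ratio of all genes in the Eed-null table was -0.10 before centring, and centring on it turned no member's direction. No paired analysis was possible because the tables hold 1 value per group, and for the same reason no library could be left out. Depth is unknown, so values near the lowest tested level, such as Pcsk1n, are of unknown precision.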

Other observations

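The genes whose pattern was most like that of Chga were Snora44, Iqgap1, Tmem176a, Nans and Eif2s2, at distances of 0.16 to 0.26 from it. Likeness was the Euclidean distance over both log2 ratios and the log2 wild-type villus level, among 11952 genes tested in both tables, and rests on 3 groups only. None of the 5 is a granule gene of the lists. Tmem176a had 45.8 RPKM in ISC compared with 28.4 RPKM in villus (q = 0.00942 per the authors' deposited table).

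Penk, the enkephalin precursor, rose from 0.0393 to 0.789 RPKM in Eed-null villus (q = 0.0105 per the authors' deposited table). It was chosen after its values were seen. It lies below 0.351 RPKM in wild-type villus and entered the test through its higher value.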
